A study of Oncorhynchus mykiss with 6 samples.

Results

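The immediate-early AP-1 and C/EBP-beta genes of rainbow trout (Oncorhynchus mykiss) liver were taken as every listed gene whose symbol, ignoring case, starts with jun or fos or is cebpb. This gave 8 entries among the 1213 listed genes, namely JUN, jun, 2 entries with the symbol junb, fos, fosl2, cebpb and CEBPB. The measurement was ribosome profiling, which sequences footprints, the stretches of mRNA that a ribosome shields from nuclease digestion. There were 6 libraries, 3 in each of 2 groups: a control group labelled 18 °C, for which the treatment protocol gives 20 °C, and a heat stress group kept at 24 °C for 8 h. The labels speak of liver placed at these temperatures, name the molecule as nuclear RNA, and give no strain, age or sex of the fish. They do not tell 3 fish from 3 preparations of 1 tissue, so the p-values reflect differences among the libraries, whatever their source.

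AP-1 is a family of dimeric transcription factors built from Jun and Fos proteins, which pair through a leucine zipper and bind DNA through the basic region beside it (the bZIP fold). In mammals the jun, junb and fos genes are immediate-early genes: stress and growth signals carried by MAP kinases raise their transcription without new protein synthesis, and their mRNAs are short-lived. C/EBP-beta is a bZIP factor abundant in liver, known in mammals for its part in the acute phase response and in the genes of glucose production, and its mRNA can be translated from alternative start codons, which counts per gene do not separate.

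The deposited table holds only genes that passed the authors' thresholds, an FDR of 0.05 and a 2-fold change, in these same libraries, so every member had to differ between the groups to be there, and the tests below describe the members rather than support their selection. The listed genes held between 362308 and 863769 footprints a library. Depth, recovered by dividing counts by the authors' FPKM (footprints scaled for gene length and library size), ranged from 41.4% to 100% of that of control replicate 1. Of 9 listed entries matched to hepatocyte markers, 3 rose, 5 fell and 1 did not pass by limma-voom, where 71.3% of all tested genes rose and 16.2% fell. The rises were fabp3, matched by the family stem fabp, and the 2 TFG entries, which matched the transferrin symbol only by its start. The falls were rbp4, RBP4, apoa-i-1, apoa-i-2 and alb1. With each library left out in turn, the calls of rbp4, fabp3 and the first TFG entry held in all 6 fits. Those of RBP4, apoa-i-1, apoa-i-2 and the second TFG entry held in 1, and that of alb1 in 2. Under TMM scaling over the listed genes, 0 of the 9 entries passed as higher and 6 as lower. RBP4 had 26, 24 and 9 footprints in control and 3, 0 and 4 in heat stress. The summed level of the 9 entries was 30914 to 32452 FPKM in the controls and 10246 to 17038 FPKM in heat stress, led by the apolipoprotein entry apoa-i-1. The marker entries named here, and MAF1 and dbpb further on, were picked after their values were seen. The 2 keratin entries of the bile duct list were krt18 and krt79, the second matched by the start of its symbol. They summed to 97.4 to 137.2 FPKM in control and 260.1 to 321.5 FPKM in heat stress. Both were below 0 in log2 fold change under TMM, and whether they come from bile duct cells was not tested. Of 2 stellate cell entries col1a1b fell and vimp, a selenoprotein matched by the start of its symbol, rose, and none of the markers for red blood cells, leukocytes and macrophages, or endothelium was listed. The part of cell composition in the members' values was not tested. In such bulk samples, fewer cells of a type and less RNA per cell cannot be told apart. Footprints alone also do not separate the amount of an mRNA from the number of ribosomes on it. Rises and falls below are therefore of footprints, and neither mRNA level nor transcription was tested. Identifiers are cut to 8 characters in the table, so no entry can be tied to a gene copy or a position. The rule finds 6 genes in the RefSeq annotation (USDA_OmykA_1.1), of which jun, cebpb and fosl2 share their symbol with a listed entry and june, fosb and fosaa do not. Trout carry duplicated genes, and reads of near-identical copies may be split between entries in a way that the table does not show.

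All 8 entries were higher in heat stress in the authors' deposited table, as were 76.2% of all listed genes. Under TMM and median-of-ratios scaling over these genes, which were selected for a change, cebpb and CEBPB turned below 0. By FPKM, every heat stress library lay above every control library for all 8 entries, against 75.5% of listed genes. In limma-voom on the counts, 7 of the 8 entries had enough footprints to be tested, and 6 of these 7 passed an adjusted p of 0.05, beside 71.3% of all 1152 tested genes that passed in that direction. Of the 7, fosl2 and junb A had enough footprints only in the heat stress libraries, where they are high. The pass of fosl2 is therefore a description and not support. The 7 tested entries had a median log2 fold change of 2.22, against 1.66 for all tested genes and 1.92 for those higher in heat stress. By mean FPKM the sizes ranged from 2.35-fold for cebpb to 32.2-fold for junb A, and fosl2 had no control footprint.

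**Figure D1:**
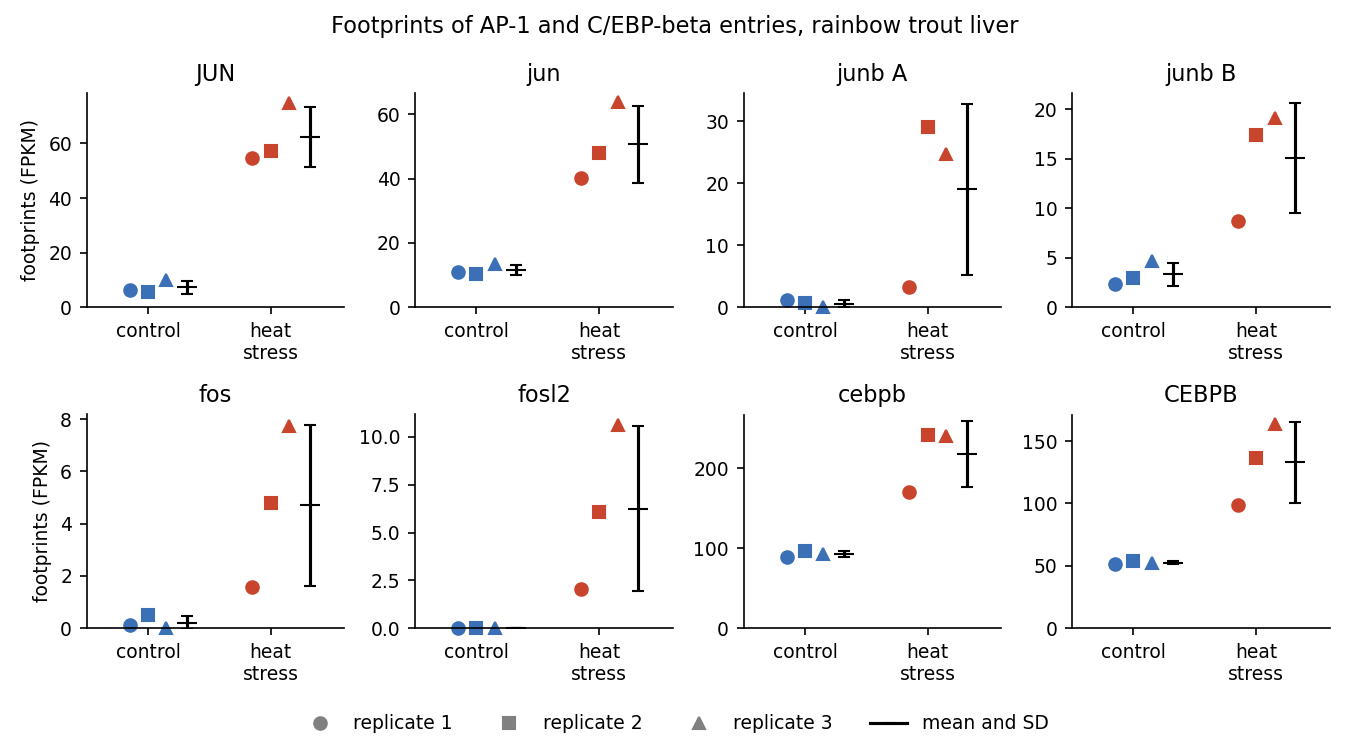
Footprints of each entry in FPKM on linear axes, 1 point a library, control in blue and heat stress in red, with the mean and SD of 3 libraries beside the points. For every entry the heat stress points lie above the control points, and heat stress replicate 1 (circle) is the lowest of the heat stress libraries. On this FPKM scale cebpb and CEBPB are higher in heat stress. Under TMM and median-of-ratios scaling over the listed genes, which were selected for a change, they are not.

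The c-Jun entries came first by level among the AP-1 genes. JUN, the c-Jun gene, which the table places in the MAP kinase pathway, had 6.19, 5.74 and 9.91 FPKM in control replicates 1, 2 and 3. It had 54.7, 57.4 and 74.8 FPKM in heat stress replicates 1, 2 and 3. The groups stood far apart, with the lowest heat stress library 5.52-fold above the highest control library. The counts behind these values were 121 footprints in control and 883 in heat stress, and the means were 7.28 ± 2.29 and 62.3 ± 10.9 FPKM (SD, n = 3 per group). The log2 fold change of JUN was 3.14 ± 0.28 (SE; limma-voom adjusted p = 0.000142).

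The second entry, jun, carries the same cut description and pathway. It had 11.0, 10.4 and 13.4 FPKM in control, and 40.1, 47.9 and 63.8 FPKM in heat stress. The heat stress libraries were again all higher, the nearest by 2.99-fold. The mean of jun went from 11.6 ± 1.61 to 50.6 ± 12 FPKM, with a log2 fold change of 2.11 ± 0.25 (limma-voom adjusted p = 0.001).

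JUN and jun exchanged their order. In each of the 3 control libraries jun was above JUN, and in each of the 3 heat stress libraries JUN was above jun. Count divided by FPKM gave JUN 1.003 times the gene length of jun, so their footprints can be set side by side directly. JUN held 36.1%, 35.6% and 42.6% of the footprints of this pair in control replicates 1, 2 and 3, with exact 95% binomial intervals of 27.6% to 45.3%, 25.6% to 46.6% and 33.1% to 52.5%. It held 57.7%, 54.5% and 54.1% in heat stress, with intervals of 53.2% to 62.2%, 48.8% to 60.2% and 50.6% to 57.6%. These intervals cover counting error only and take each footprint as an independent molecule, which PCR duplicates would not be. The mean share was 38.1% ± 3.90 in control and 55.5% ± 1.98 under heat (SD, n = 3), without overlap between the groups, and this ratio within a library does not depend on library depth or on the scaling. An exact permutation test of the share gave p = 0.1 (two-sided), the smallest that 3 against 3 libraries allow.

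**Figure D2:**
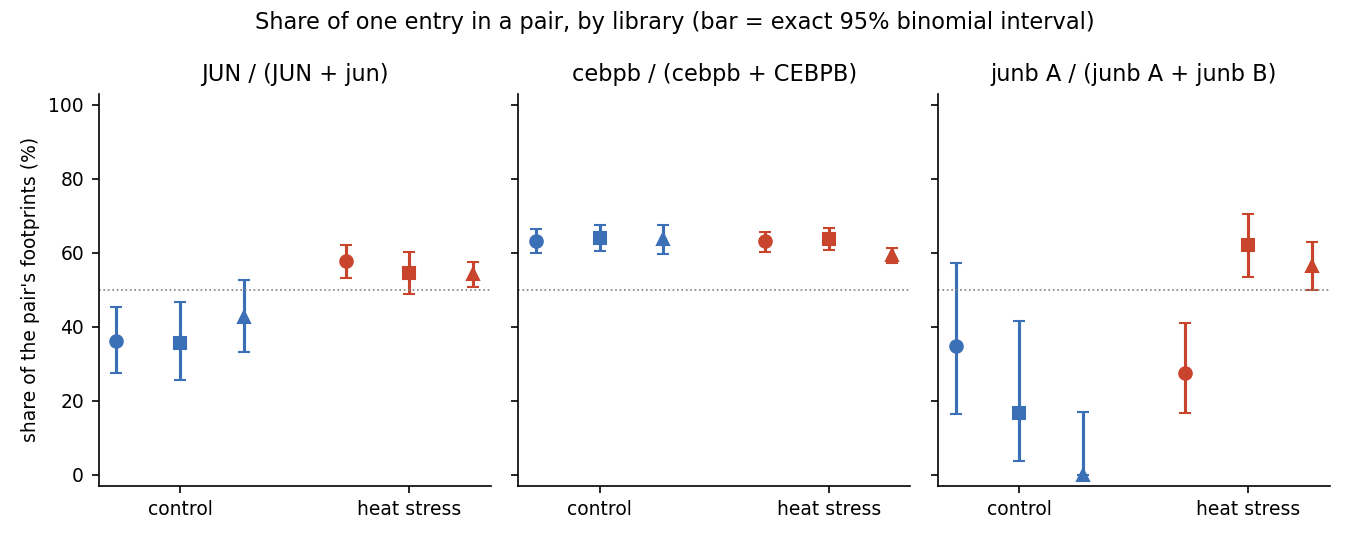
Share of the footprints of a pair of entries that fell on the first of them, in percent, 1 point a library with its exact 95% binomial interval (counting error only); circles, squares and triangles are replicates 1, 2 and 3. The JUN share lies at 35.6% to 42.6% in control and 54.1% to 57.7% in heat stress, the cebpb share at 59.3% to 63.9% in all libraries, and the junb A share overlaps between the groups.

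JunB is the Jun protein that in mammalian cells can pair with Fos and oppose c-Jun at some promoters. Its symbol has 2 entries in the table, called junb A and junb B here in the order of the table. The entry junb A had 1.17, 0.6 and 0 FPKM in control, from 8, 3 and 0 footprints. It had 3.28, 29.0 and 24.7 FPKM in heat stress, from 16, 82 and 135 footprints. Heat stress replicate 1 thus lay closer to the control libraries than to the other heat stress libraries. Over the summed footprints of the groups, 11 and 233, the rate per depth was 26.2-fold higher in heat stress (exact 95% interval of counting error 14.4 to 53.2). The log2 fold change of junb A was 4.75 ± 1.37, and it did not pass (limma-voom adjusted p = 0.143). Without heat stress replicate 1 it passed (limma-voom adjusted p = 0.00136), and without each of the other libraries in turn it did not, with adjusted p up to 0.393.

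The entry junb B had 2.34, 2.99 and 4.65 FPKM in the controls and 8.76, 17.4 and 19.2 FPKM in heat stress. Here too heat stress replicate 1 was lowest, at 1.88-fold the highest control library. The log2 fold change of junb B was 2.22 ± 0.44 (limma-voom adjusted p = 0.0169), from means of 3.33 ± 1.19 and 15.1 ± 5.57 FPKM. Its call did not survive the removal of control replicate 1 or 2 (limma-voom adjusted p = 0.131 and 0.0623) or of heat stress replicate 2 or 3 (0.0546 and 0.063). The junb A share of the junb footprints was 34.8%, 16.7% and 0% in control and 27.6%, 62.1% and 56.5% in heat stress. These ranges overlapped, and an exact permutation test of the share gave p = 0.2. With 0 of 20 footprints in control replicate 3, the exact 95% interval there reached up to 16.8%.

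The Fos entries had the fewest footprints. The gene fos encodes c-Fos, the partner of c-Jun whose mRNA is among the first to rise after a stimulus in mammals. It had 1, 3 and 0 footprints in control and 9, 16 and 51 in heat stress, or 0.130, 0.490 and 0 FPKM against 1.56, 4.79 and 7.74 FPKM. The groups did not overlap, and the heat stress libraries were spread over a 4.96-fold range. The summed rate per depth was 23.5-fold higher in heat stress (exact 95% interval of counting error 8.82 to 88.5). The filter on low counts left fos out of the test. Without that filter its log2 fold change was 4.19 ± 0.85 (limma-voom adjusted p = 0.0213).

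The gene fosl2 encodes Fra-2, a Fos-related protein that lacks the strong activation domain of c-Fos. It had no footprint in any control library, and 10, 19 and 59 footprints (2.04, 6.06 and 10.6 FPKM) in heat stress. Every heat stress library was therefore above control, and heat stress replicate 3 was 5.22-fold above heat stress replicate 1. With the 3 control libraries together allowed 3 footprints, the limit set by a count of 0, the observed fosl2 rate in heat stress was 36.3-fold higher. This ratio leaves out counting error in heat stress. With counting error in both groups, the exact 95% interval began at 28.9-fold. It passed the test (limma-voom adjusted p = 0.00316), which it entered only through its heat stress libraries, so the pass is not read as support. Its fitted log2 fold change of 5.85 ± 0.85 depends on how a count of 0 is handled.

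The C/EBP-beta entries were the most abundant members and had the smallest log2 fold changes of the 7 tested. The entry cebpb had 89.0, 96.3 and 92.5 FPKM in control, an SD of 3.99% of the mean. It had 170.1, 242 and 240.4 FPKM in heat stress. All heat stress libraries were higher, the nearest by 1.77-fold, and the means were 92.6 ± 3.69 and 217 ± 41.0 FPKM. The log2 fold change of cebpb was 1.21 ± 0.21 (limma-voom adjusted p = 0.00925), but -0.27 with TMM factors, computed on the table's genes, and -0.33 with median-of-ratios factors.

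The entry CEBPB had 51.3, 54.0 and 52.4 FPKM in the controls and 99.0, 136.7 and 163.6 FPKM in heat stress. Its log2 fold change was 1.31 ± 0.23 (limma-voom adjusted p = 0.00864), but -0.18 with TMM and -0.23 with median-of-ratios factors. The share of cebpb in the footprints of the pair was 63.2%, 63.9% and 63.7% in control and 63.0%, 63.7% and 59.3% in heat stress. The heat stress libraries 1 and 2 lay within the range of the control intervals, and heat stress replicate 3 was the lowest (exact 95% interval 57.1% to 61.4%). The means differed by -1.63 percentage points (exact permutation test, p = 0.2), which does not show that the entries responded alike. In the log2 ratio of FPKM, cebpb over CEBPB changed by -0.10 between the groups, from 0.82 ± 0.02 to 0.72 ± 0.14.

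The direction of a change across groups rests on the scale. With TMM factors the log2 fold change of all tested genes shifted by a median of -1.48, with median-of-ratios factors by -1.54 and with the sum of listed footprints by -0.93, because these scalings take most listed genes, or their sum, as unchanged. On the authors' scale every listed gene had passed a 2-fold change, 76.2% of them upward, so that premise does not hold on that scale. Which of the scales is right was not tested. The log2 fold changes of cebpb and CEBPB were smaller than the TMM and median-of-ratios shifts and turned below 0 with these factors. Relative to the median of the tested genes, the log2 fold change of fosl2 lay 4.20 higher, junb A 3.09 higher, JUN 1.48 higher, junb B 0.56 higher and jun 0.45 higher, whereas CEBPB and cebpb lay below it, at -0.34 and -0.44. With TMM, 2 of the 7 members passed as higher, JUN and fosl2, beside 7.81% of all tested genes. With median-of-ratios factors 2 passed, beside 7.64%, and with the sum of listed footprints 3, beside 18.0%.

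**Figure D3:**
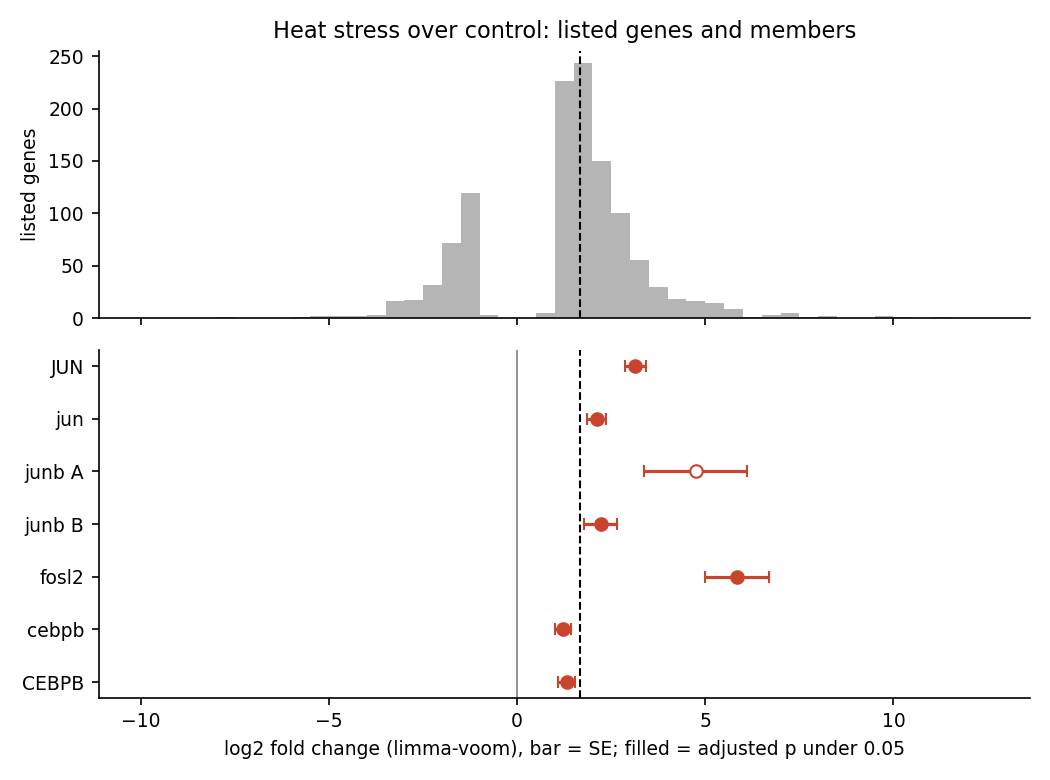
Log2 fold change of heat stress over control by limma-voom with recovered depths, as a histogram of the 1152 tested genes (top) and for the 7 tested entries with their SE (bottom); filled points passed an adjusted p of 0.05, the dashed line is the median of all tested genes. The cebpb and CEBPB points lie left of that median and turn below 0 under TMM and median-of-ratios factors, and the other 5 points lie to its right.

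Ratios between entries within a library, as log2(FPKM + 0.1), were compared for all 28 pairs. They do not depend on how libraries are scaled to each other, except through the 0.1 FPKM added, which sets the control ratios of fosl2, fos and junb A, the entries with 0 to 11 control footprints in all. In 17 of the 28 pairs the ratio did not overlap between the groups, 10 of them with one of those entries and 7 among the other 10 pairs. The same share was not taken over pairs of other listed genes, which were selected on this contrast too. The count is therefore not read as particular to the members. Each of the 17 reached p = 0.1 in the exact permutation test (two-sided), the smallest possible, or 0.165 after Benjamini-Hochberg adjustment over the pairs. The log2 ratio of JUN to cebpb was -3.69 ± 0.43 in control and -1.80 ± 0.24 in heat stress, a difference of 1.90, and that of JUN to CEBPB differed by 1.80. For jun the differences were 0.89 against cebpb and 0.79 against CEBPB. The ratio of jun to junb B was 1.82 ± 0.34 in control and 1.79 ± 0.37 in heat stress, a difference of -0.03 (exact permutation test, p = 0.8).

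Per gene length, the order of the levels in control was cebpb, CEBPB, jun, JUN, junb B, junb A, fos and fosl2. From cebpb down to junb A the ranges of neighbours were separate, and those of junb A and fos and of fos and fosl2 overlapped. In heat stress the order was cebpb, CEBPB, JUN, jun, junb A, junb B, fosl2 and fos. The ranges of JUN and jun, of junb A and junb B, of junb B and fosl2 and of fosl2 and fos overlapped across libraries, although JUN was above jun, junb B above fosl2 and fosl2 above fos within each heat stress library. Summed over entries, the 4 Jun-type entries went from 22.8 ± 4.52 to 147 ± 38.0 FPKM, the 2 Fos-type entries from 0.207 ± 0.254 to 10.9 ± 7.39 FPKM, and the 2 C/EBP-beta entries from 145 ± 5.02 to 351 ± 71.7 FPKM (SD, n = 3), with the C/EBP-beta entries turning below 0 in log2 fold change under TMM and median-of-ratios factors.

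The heat stress libraries differed among themselves. Heat stress replicate 1 was the lowest of the 3 for all 8 members, as it was for 65.8% of the 924 genes listed as higher and 20.1% of the 289 listed as lower. Heat stress replicate 2 was 1.05-fold and 1.19-fold above it for JUN and jun, 1.42-fold and 1.38-fold for cebpb and CEBPB, and 1.99-fold for junb B. The factor was 2.97 for fosl2, 3.07 for fos and 8.85 for junb A. In heat stress replicates 1 and 2, fosl2 had only 10 and 19 footprints and fos 9 and 16, so counting error in their factors is wide. Over the listed genes higher in heat stress with a footprint in each heat stress library, the median of the ratio of replicate 2 to 1 was 1.31 and its 95th percentile 2.99. These genes were not matched to the members by footprint number. Heat stress replicate 3 exceeded replicate 1 by more than the corresponding median of 1.21 in all 8 members, and by 7.54-fold for junb A. Whether this spread comes from the fish or from the libraries was not tested.

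**Figure D4:**
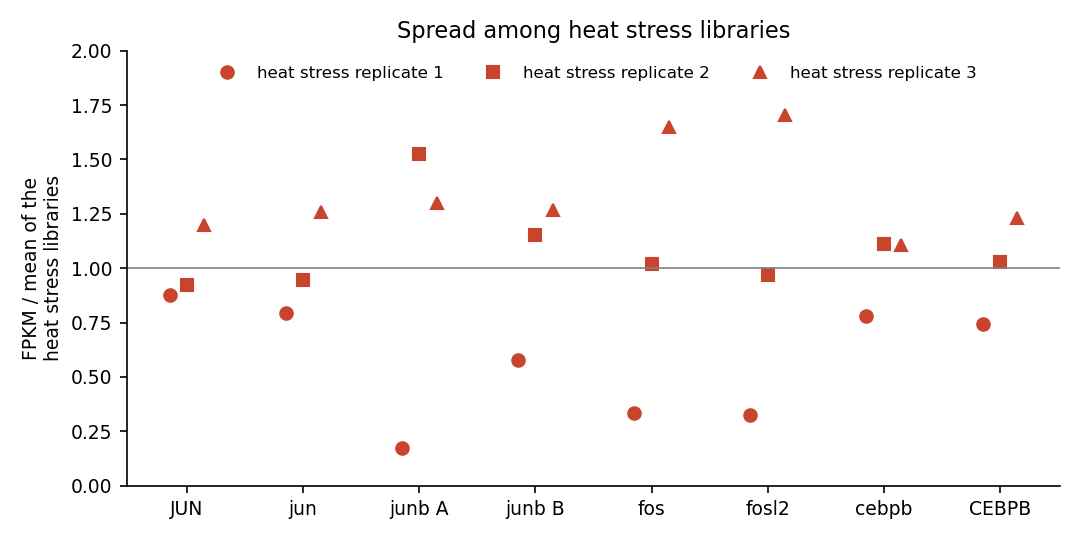
FPKM of each heat stress library divided by the mean of the 3 heat stress libraries, for the 8 entries, on a linear axis. Replicate 1 lies below the line at 1 for every entry, from 0.173 for junb A to 0.878 for JUN.

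Partners, inputs and outputs of these factors were followed in lists of symbols. Of the table's transcription factor column, 34 rows are marked bZIP, 6 of them members, and 3 are marked C/EBP, 2 of them members. Among 30 entries of other bZIP factors, 25 rose, 4 fell and 1 did not pass by limma-voom, where 71.3% of all tested genes rose and 16.2% fell, with a median log2 fold change of 1.83 against 1.66 for all tested genes. The sign turned in 4 of them under TMM, 7 under median-of-ratios factors and 0 with listed footprints, and 1 passed as higher and 4 as lower under TMM. Leaving out control replicate 1, 2 or 3 turned the 25 rises into 10, 15 and 13, and leaving out heat stress replicate 2 or 3 into 15 and 14. ATF5, a stress-response factor, rose from 0.837 ± 0.576 to 29.7 ± 12.7 FPKM in its first entry. The unfolded protein response factor xbp1 rose from 36.1 ± 4.31 to 124 ± 29.7 FPKM. TEF, a clock output factor, rose from 0.800 ± 0.135 FPKM, on only 6, 3 and 3 footprints, to 21.9 ± 13.2 FPKM. Its relative HLF fell from 13.8 ± 2 to 1.53 ± 0.524 FPKM in its first entry. The entry dbpb had the same heat stress values as that HLF entry, so the reads of these entries may not be separate. The 30 entries carry 20 symbols, and a pair of atf4 entries, picked after their values were seen, had identical values in every library. Both atf4 entries of that pair count among the rises. One of the falls, MAF1, matched by the start of its symbol and is a repressor of RNA polymerase III, not a bZIP factor.

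Of 17 entries of other early response genes, 7 rose, 2 fell, 6 did not pass and 2 were not tested, with a median log2 fold change of 1.69, against the same 71.3% and 16.2% of all tested genes. Under TMM 1 passed as higher and 5 as lower, the sign turned in 1 of them under TMM and under median-of-ratios factors, and the 7 rises became 3 without control replicate 1. The stress and hormone inducible kinase gene sgk1 rose from 6.96 ± 0.273 to 37.9 ± 11.9 FPKM, and its relative Sgk2 fell from 10.3 ± 3.49 to 1.86 ± 0.590 FPKM. The Sgk2 call was lost without heat stress replicate 3 (limma-voom adjusted p = 0.0893). PPP1R15B, which directs a phosphatase to the translation factor eIF2, rose from 0.0867 ± 0.0757 to 3.54 ± 1.80 FPKM in its first entry. That entry had only 0, 1 and 1 footprints in control and 18, 26 and 26 in heat stress, which limits what can be said of the size of change. GADD45B, a stress-inducible activator of MAP kinase signalling, had 2.23, 5.02 and 2.13 FPKM in the controls and 5.03, 31.0 and 54.3 FPKM in heat stress. Its heat stress replicate 1 was level with control replicate 2, and it did not pass (limma-voom adjusted p = 0.619).

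Of 10 entries of MAP kinase signalling, 8 rose, 1 fell and 1 did not pass, with a median log2 fold change of 1.81, beside 71.3% of all tested genes that rose. Under TMM 1 passed as higher and 1 as lower. The sign turned in 3 of them under TMM and under median-of-ratios factors, and the 8 rises became 4 without control replicate 1. The MAP kinase-interacting kinase genes mknk1, from 3.24 ± 1.6 to 86.0 ± 42.3 FPKM, and mknk2, from 6.63 ± 1.02 to 43.9 ± 13.2 FPKM in its first entry, rose. The adaptor gene traf2b rose from 3.33 ± 0.387 to 15.3 ± 5.96 FPKM, and this call failed when control replicate 1 was left out (limma-voom adjusted p = 0.068). MAP3K19, a kinase gene, fell from 7.75 ± 0.0656 to 1.90 ± 0.862 FPKM.

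Of 10 entries in a list of liver acute phase and glucose genes, made for known C/EBP-beta or AP-1 regulation in mammals, 7 rose, 1 fell and 2 did not pass. Their median log2 fold change was 1.75, again beside 71.3% of all tested genes that rose. Under TMM 1 passed as higher and 2 as lower, and the sign turned in 2 under TMM and under median-of-ratios factors. The entries fga and FGA had identical FPKM in every library, share the name of the fibrinogen alpha chain, and turned sign under TMM (-0.03). Each had 311 ± 35.8 FPKM in the controls and 813 ± 78.7 FPKM in heat stress, and both count among the 7 rises. Entries of the same symbol also went opposite ways, as in G6PC and c3, picked after their values were seen. The fall was a G6PC entry, from 328 ± 94.3 to 136 ± 35.2 FPKM (limma-voom adjusted p = 0.0268). Its fall passed in only 2 of the 6 fits that each omitted 1 library, where the adjusted p of limma-voom reached 0.133. Another G6PC entry rose from 4.91 ± 1.36 to 19.0 ± 5.19 FPKM, and this rise passed in 5 of those 6 fits. A c3 entry rose from 214 ± 60.0 to 629 ± 92.2 FPKM, and another, at 486 ± 171 and 226 ± 25.8 FPKM, did not pass. The metalloproteinase inhibitor entries Timp2 and TIMP2 matched the list only by the start of their symbol and are not taken as known targets. They rose from 24.7 ± 3.94 to 245 ± 57.2 FPKM and from 69.2 ± 15.1 to 377 ± 177 FPKM.

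**Figure D5:**
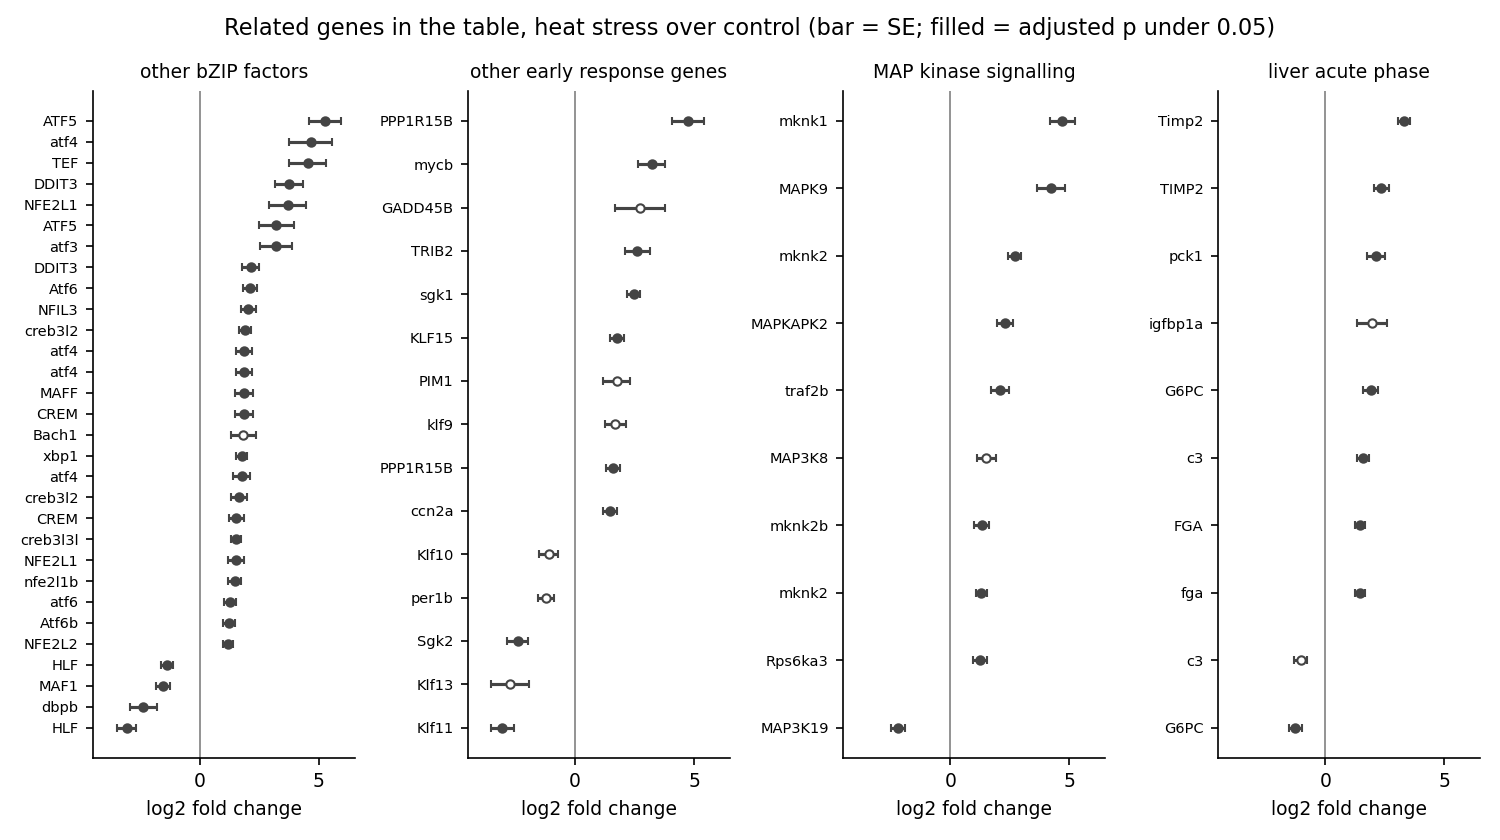
Log2 fold change of heat stress over control by limma-voom with recovered depths, with SE, for the tested entries of 4 lists of related genes; filled points passed an adjusted p of 0.05. Most points lie right of 0, as for all tested genes, and under TMM the sign turns in 4, 1, 3 and 2 entries from left to right.

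The genes most like each member were found by the root mean square difference of centred log2 values over the 6 libraries, which mixes the group difference with the spread inside the groups. For JUN the nearest was ATP10D (0.12), a lipid transporter gene at only 0.12, 0.09 and 0.20 FPKM in control. Next were Dnajb2 (0.20), an Hsp40 co-chaperone gene, and zgc:1530 (0.20), whose name is cut. For jun the nearest were EIF4G2 (0.14), a translation initiation factor gene, zfpl1 (0.15) and CGREF1 (0.15). For cebpb they were the splicing factor gene SRSF6 (0.06), Plxnb2 (0.08) and scfd1 (0.08), and for CEBPB isca2 (0.08), zfand1 (0.10) and znf277 (0.11). For junb B they were RAB11A (0.14), pck1 (0.16), the gene of the enzyme PEPCK of glucose production, and fem1c (0.17). The entries junb A and fosl2 had no close match, with TNIP2 (0.88), STK38L (0.93) and Adap2 (1.01) nearest to junb A, and hsc71 (0.62) and CPLX3 (0.63) among those nearest to fosl2. Heat stress replicate 1 was the lowest of the heat stress libraries in junb A and in TNIP2, STK38L and Adap2, as in 65.8% of genes listed as higher. The matches were chosen on these same values, so nothing is read from this shared trait.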

How the data were processed

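Per the submitters' processing notes, Bowtie2 and edgeR were used, with no role or version. No source used here names the read counter, genome build or annotation. The authors deposited 1 fixed-width table, 8 characters a cell. Its columns are, per the file headers, the footprint count and the FPKM of each library, group means of FPKM, the log2 fold change and its p-value and FDR. A further 411 lines of overflowed annotation text were not used.

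The table holds selected genes only, so library totals were replaced by relative depths, the median over 94 genes of count over FPKM (SD at most 1.24%). Counts were tested with limma-voom (limma 3.58.1, R 4.3.3) on the 1152 genes that reached 10 footprints, scaled to the median depth, in 3 or more libraries, adjusted by Benjamini-Hochberg over about 29300 genes, the number the authors tested as recovered from their FDR, rank and p-value. Ratios between entries used log2(FPKM + 0.1) and exact permutation tests (Python 3.11.15, scipy 1.17.1). Alternatives were TMM, median-of-ratios and listed-footprint scaling, no filter, log2(FPKM + 1) values, a replicate block and leaving out each library. The fit was tested on simulated data in which most genes were unchanged and the changes were split evenly up and down. The listed genes were all selected for a change, mostly upward, so the simulation does not cover that selection.

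The members and gene lists were chosen with earlier results of these data known. All members are named; of other genes, the 3 nearest patterns per tested entry and the 4 with the smallest authors' p per list. Genes named outside this rule are said to be so. One gene that the rule names is not reported here. The labels do not say whether equal replicate numbers pair the libraries, and the main fit did not pair them. Deviations of same-numbered libraries correlated at -0.05, -0.04 and 0.01, and those of unequal numbers at -0.04 to 0.08. With so few libraries these values cannot exclude a pairing.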

Additional observations from a re-analysis of the deposited data

How the results depend on the processing

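JUN and fosl2 passed under every alternative tried, but not at one size. Since fosl2 has footprints in heat stress only and met the filter through that group, its passes are not support for its change. With 1 library left out the log2 fold changes of JUN and fosl2 were 2.99 to 3.35 and 5.16 to 6.61. With TMM, median-of-ratios and listed-footprint scaling they were 1.65, 1.59 and 2.21 for JUN and 4.44, 4.40 and 4.98 for fosl2, which had 2.65 on log2(FPKM + 1). The scaling over listed genes mattered most. TMM and median-of-ratios factors gave 0.62 and 0.56 for jun and 0.75 and 0.70 for junb B, no longer passing, and turned cebpb to -0.27 and -0.33 and CEBPB to -0.18 and -0.23. The sum of listed footprints gave 0.29 for cebpb, 0.38 for CEBPB and 1.29 for junb B, not passing. The members called numbered 6, and 2, 2 and 3 under these scalings. For junb A, the replicate block (4.91), adjustment over the listed genes (4.75) and log2(FPKM + 1) values (3.30) passed the test. The replicate block changed no other call (7 members called), and nothing in the labels ties equal numbers to one fish. With 1 library left out the log2 fold changes ranged from 1.92 to 2.27 for jun, 1.13 to 1.38 for cebpb, 1.15 to 1.51 for CEBPB, 3.75 to 5.74 for junb A and 1.94 to 2.61 for junb B, with 5 to 7 members called. The log2 ratio of JUN to jun changed by 0.94 to 1.14, that of cebpb to CEBPB by -0.15 to -0.01 and that of junb A to junb B by 1.45 to 3.76, or 1.44 with 1 FPKM added and 3.72 from counts per recovered depth. Over all tested genes the 821 rises became 446 to 833 with 1 library left out (446 when it was control replicate 1), and the 187 falls 66 to 139 (66 when it was heat stress replicate 3). The causes of these changes were not tested. Footprint counts of fos, fosl2 and junb A in control, 4, 0 and 11 in all, limit what can be said of their size of change.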

Other observations

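Further genes of these lists, chosen after their values were seen, are given here. Except for Klf11 they were all higher in heat stress, but the lists were not uniform. Of the 17 other early response entries, 11 are listed as higher and 6 as lower. Among the lower ones, Klf11 fell from 2.92 ± 0.443 to 0.323 ± 0.110 FPKM (limma-voom adjusted p = 0.00561), a call lost without heat stress replicate 3. The gene atf3, a bZIP partner of Jun proteins, had 0.900, 1.76 and 1.37 FPKM in control and 6.30, 15.4 and 22.0 FPKM in heat stress. It passed (log2 fold change 3.19 ± 0.68, limma-voom adjusted p = 0.0247), and the call was lost without control replicate 1 or 3 or heat stress replicate 2 or 3 (adjusted p up to 0.14). MAFF, a small Maf bZIP gene, had 6.16, 4.02 and 4.40 FPKM in control and 14.0, 22.3 and 19.8 FPKM in heat stress (limma-voom adjusted p = 0.018), a call that held only without heat stress replicate 1 among the 6 fits with a library left out. The early response gene ier3 had no footprint in control and 1.83, 6.37 and 7.23 FPKM in heat stress, and was not tested. Its observed rate in heat stress was 18.6-fold higher if the control libraries together are allowed 3 footprints. That ratio leaves out counting error in heat stress. In atf3, MAFF and ier3 heat stress replicate 1 was the lowest heat stress library, as in 65.8% of genes listed as higher, so nothing is read from this. MAPK9, a gene of the JNK family whose protein phosphorylates c-Jun in mammals, had 0.32, 0 and 0 FPKM in control and 2.80, 2.03 and 2.75 FPKM in heat stress. In heat stress its replicate 1 was not the lowest (limma-voom adjusted p = 0.00267). These values rest on 2, 0 and 0 footprints in control and 14, 8 and 16 in heat stress, which limits what can be said of the size of change. The Myc gene mycb rose from 0.433 ± 0.229 to 4.45 ± 1.67 FPKM (limma-voom adjusted p = 0.00944), with the same limit, from 4, 1 and 3 footprints in control.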
